A study of Mus musculus with 2 samples.

Results

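The genes described here are 10 known targets of the transcription factor p53 other than Cdkn1a, the gene of p21: Mdm2, Ccng1, Trp53inp1, Bax, Bbc3, Phlda3, Sesn1, Sesn2, Plk2 and Gdf15. They were chosen as a named list and matched by symbol, and each of the 10 matched 1 of the 32285 genes of the deposited tables. Single-cell RNA-seq was performed on live mononuclear cells sorted from the limb muscle of mice, which the study describes as aged C57BL/6 animals injected with Maraviroc (MVC), a small-molecule drug, or with its vehicle DMSO. There was 1 library per treatment, and the study's text places them with its high-dose, short-term course of intraperitoneal injections, while the labels give no age or dose and the number of animals behind each library is not stated. MVC was compared with DMSO to ask how each member differed between the libraries in each cell class. With 1 library per treatment no difference could be tested, so every ratio below describes these libraries, and each interval is a 95% interval that covers counting error only.

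p53 is kept low in unstressed cells because Mdm2, itself a p53 target, ubiquitinates it for degradation. DNA damage and other stresses release p53 from Mdm2, and the targets then induced arrest the cell cycle, set off apoptosis, or adjust metabolism and growth signalling. In aged tissue p53 and its targets are much studied because p21 is a classical marker of senescent cells, and because Gdf15, a secreted member of the TGF-beta family, is also induced by the integrated stress response and by inflammation.

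The promoter windows of 9 of the 10 members were found in RefSeq for GRCm38.p6, as 13 windows of 250 bases before to 50 bases after a transcription start, and Trp53inp1 had none in that table. They were searched on both strands for the p53 decamer, the 10-base consensus that stands in tandem in p53 response elements and reads the same on both strands. The decamer was found in 4 of the 13 windows, 1 each of Mdm2, Ccng1, Bax and Sesn1, against 8.36% of the 32851 promoter windows of the table. A pair of adjacent decamers with up to 2 mismatches outside the cores was found in 0 of the 13 windows and in 0.158% of all windows. The 4 windows with a match are printed because they are those where the letters of the p53 consensus stand close to a member's start. The decamer is in capitals, and it begins at position -186 in Mdm2, -185 in Ccng1, -201 in Bax and -173 in the second listed start of Sesn1, counted from the start of transcription.

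Mdm2 promoter, chr10:117710709-117711008, minus strand: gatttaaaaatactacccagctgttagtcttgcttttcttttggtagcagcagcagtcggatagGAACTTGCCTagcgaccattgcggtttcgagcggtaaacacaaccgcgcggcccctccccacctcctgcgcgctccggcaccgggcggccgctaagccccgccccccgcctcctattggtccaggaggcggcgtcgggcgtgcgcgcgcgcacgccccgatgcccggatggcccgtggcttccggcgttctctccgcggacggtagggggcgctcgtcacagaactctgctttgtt
Ccng1 promoter, chr11:40755237-40755536, minus strand: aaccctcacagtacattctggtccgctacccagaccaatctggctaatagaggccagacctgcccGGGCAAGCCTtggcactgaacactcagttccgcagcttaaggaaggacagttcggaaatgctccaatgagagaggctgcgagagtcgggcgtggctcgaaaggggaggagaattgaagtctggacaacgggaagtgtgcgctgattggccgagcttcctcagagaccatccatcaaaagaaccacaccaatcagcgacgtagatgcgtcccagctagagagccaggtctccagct
Bax promoter, chr7:45466849-45467148, minus strand: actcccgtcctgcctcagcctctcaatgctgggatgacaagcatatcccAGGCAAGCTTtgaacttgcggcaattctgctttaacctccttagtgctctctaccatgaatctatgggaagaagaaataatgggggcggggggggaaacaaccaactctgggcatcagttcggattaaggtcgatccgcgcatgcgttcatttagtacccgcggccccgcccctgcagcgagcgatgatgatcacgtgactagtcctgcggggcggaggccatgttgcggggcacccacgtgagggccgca
Sesn1 promoter, chr10:41887189-41887488, plus strand: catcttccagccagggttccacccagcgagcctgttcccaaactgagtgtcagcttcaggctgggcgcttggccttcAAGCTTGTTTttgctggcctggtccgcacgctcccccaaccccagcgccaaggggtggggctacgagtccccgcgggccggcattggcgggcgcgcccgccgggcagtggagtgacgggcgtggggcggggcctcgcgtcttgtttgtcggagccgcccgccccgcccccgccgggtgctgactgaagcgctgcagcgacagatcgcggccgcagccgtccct

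The windows of Gdf15, Bbc3, Phlda3, Sesn2 and Plk2 held no decamer, which says only that these letters are not in these stretches. In the GENCODE M21 annotation of GRCm38, Mdm2 lies on chromosome 10 (117688875 to 117710758), Gdf15 on chromosome 8 (70629393 to 70632456), Trp53inp1 on chromosome 4 (11156431 to 11174379) and Bax on chromosome 7 (45461697 to 45466898). Bax, Sesn1 and Sesn2 each overlap 1 other annotated gene on the same strand, of which only Gm12981, at Sesn2, was among the counted genes. Of the 31-base words in its transcripts, 11.1% were shared with other genes for Bax, 1.93% for Mdm2, 0.0855% for Ccng1 and 0% for the other members. These other genes include annotated ones that were not counted, and the effect of shared words on the counts was not tested.

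The DMSO library held 5437 kept cells and the MVC library 5454, with median depths of 5802 and 5195 unique molecular identifiers (UMIs) per cell. Clustering gave 27 clusters, of which 26 were named from marker genes, and a class is written "X-like" for that reason. The other cluster, with 89 DMSO and 376 MVC cells and a median of only 1229 UMIs, stayed unnamed, though 5 markers of EC were found in it. The 7 classes with at least 100 cells in each library were the endothelial (EC-like, 2203 DMSO and 1740 MVC cells), fibro-adipogenic progenitor (FAP-like, 1171 and 1427), tenocyte-like (467 and 529), pericyte-like (251 and 238), muscle stem cell (MuSC-like, 144 and 256), macrophage-like (152 and 211) and B cell-like (203 and 104) cells. The libraries shared 8 barcodes among kept cells. Levels are given as CPM, the UMIs of a gene summed over the cells of a class divided by all UMIs of that class in that library and multiplied by 1000000. A level can therefore differ because more cells carry the gene or because each of those cells carries more of it.

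Across the 7 classes the members lay lower in the MVC library more often than higher. Among members with at least 50 UMIs in a class, those lower by at least 1.5-fold numbered 1 of 10 in EC-like cells (Gdf15), 3 of 10 in FAP-like cells (Gdf15, Trp53inp1 and Sesn2), 2 of 9 in tenocyte-like cells (Gdf15 and Trp53inp1), 1 of 5 in pericyte-like cells (Trp53inp1), 1 of 6 in MuSC-like cells (Trp53inp1), 2 of 9 in macrophage-like cells (Mdm2 and Sesn2) and 1 of 5 in B cell-like cells (Trp53inp1). The same share over all genes with at least 50 UMIs was 4.22% in EC-like, 3.08% in FAP-like, 5.5% in tenocyte-like, 7.95% in pericyte-like, 9.3% in MuSC-like, 6.16% in macrophage-like and 7.87% in B cell-like cells. Only 1 member in 1 of these classes was higher in the MVC library by that fold, Phlda3 in tenocyte-like cells. Over all genes the share higher by 1.5-fold was 8.73% in EC-like, 12.1% in FAP-like, 9.04% in tenocyte-like, 9.81% in pericyte-like, 10.1% in MuSC-like, 9.88% in macrophage-like and 11.7% in B cell-like cells. The median log2 ratio of the members was -0.21 in EC-like, -0.13 in FAP-like, -0.28 in tenocyte-like, -0.20 in pericyte-like, -0.21 in MuSC-like, -0.22 in macrophage-like and -0.24 in B cell-like cells. The median over all genes was 0.05, 0.14, 0.04, 0.04, -0.05, 0.04 and 0.06 in the same order. With 5 to 10 members a class, 1 gene moves a share by 10 percentage points or more.

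**Figure D1:**
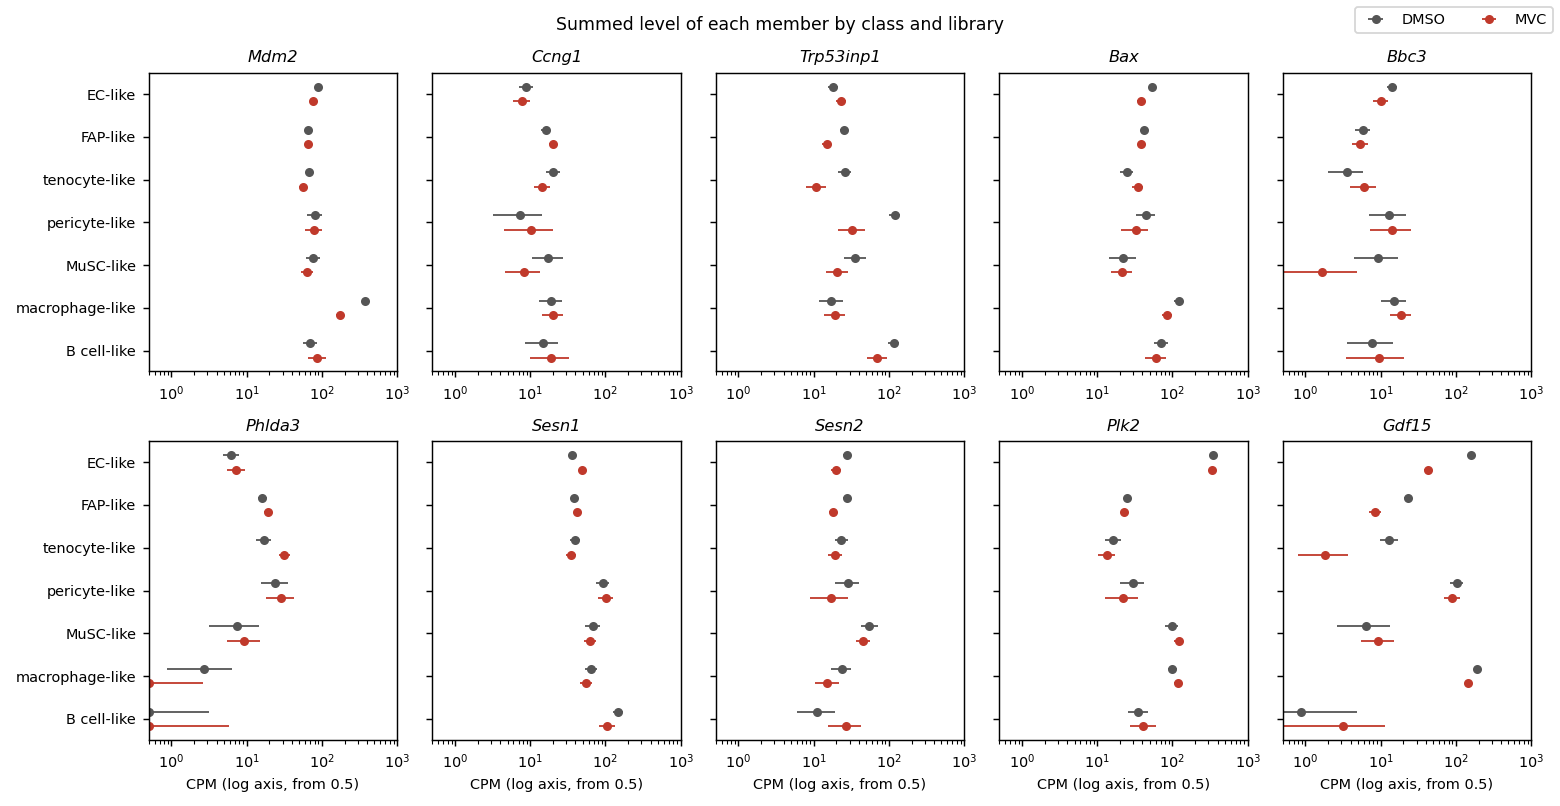
Summed level of each member (CPM, log axis that starts at 0.5, with levels under 0.5 drawn there) in the 7 classes with at least 100 cells per library, in the DMSO library (grey) and the MVC library (red); bars are exact Poisson 95% intervals of the counts. Mdm2 and Bax were highest in macrophage-like cells and Plk2 in EC-like cells in both libraries, and the widest gap between libraries in EC-like cells was that of Gdf15.

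**Figure D2:**
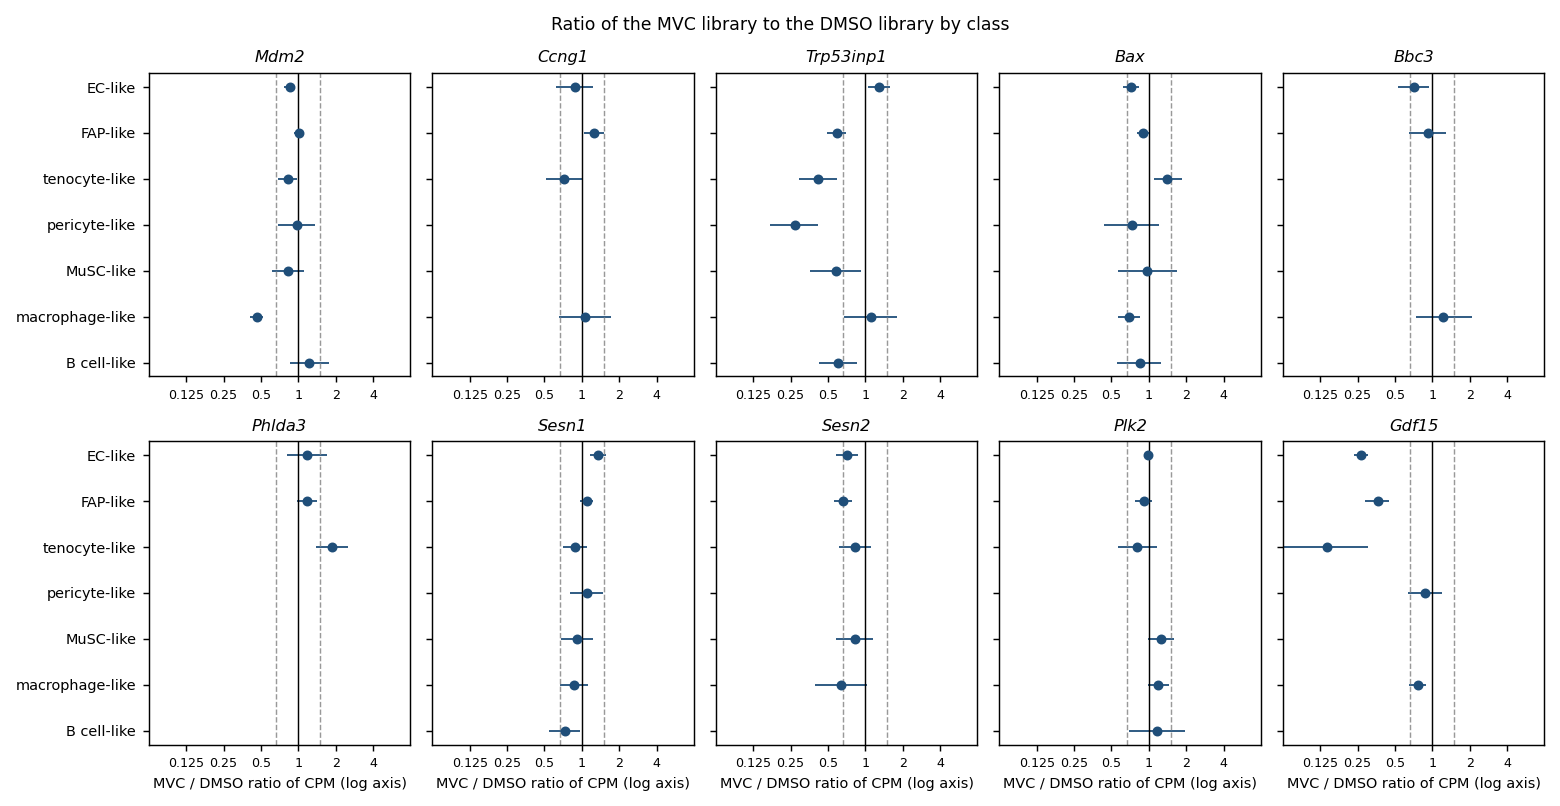
Ratio of the MVC level to the DMSO level (log axis) of each member with at least 50 UMIs in a class; bars are exact conditional 95% intervals, the solid line marks a ratio of 1 and the dashed lines 1.5-fold either way. Gdf15 lay at 0.267 in EC-like cells and Plk2 at 0.989, while Trp53inp1 lay under 1 in FAP-like, tenocyte-like, pericyte-like, MuSC-like and B cell-like cells and at 1.29 in EC-like cells.

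Mdm2, the ubiquitin ligase that restrains p53, had over 50 UMIs in each of the 13 named classes that numbered 50 or more cells per library. Its level in the DMSO library was 375 CPM in macrophage-like cells and between 54.8 and 88.8 CPM in the other 12 classes, whose intervals overlapped from 1 neighbour to the next in order of level. In the MVC library macrophage-like cells again stood first, at 173 CPM, and the other 12 classes ran from 50.1 to 85.8 CPM. The macrophage-like level was thus lower in the MVC library by a ratio of 0.461 (0.405 to 0.524), on 696 DMSO and 364 MVC UMIs. The share of macrophage-like cells with an Mdm2 UMI was 65.8% (57.7 to 73.3) in the DMSO library and 55.0% (48.0 to 61.8) in the MVC library. After each cell was thinned to 2000 UMIs the shares were 30.5% and 25.9%, with intervals that overlapped, and the lowest thinned shares of the 7 classes were 10.8% in DMSO FAP-like cells and 8.50% in MVC MuSC-like cells. Cells with a UMI held 6.96 UMIs of Mdm2 on average in the DMSO and 3.14 in the MVC library. Much of the Mdm2 lay in few cells of the DMSO library, where 22 of 152 had at least 10 UMIs and held 68.4% of the total. In the MVC library 7 of 211 cells did, with 26.9%. Thinning and the mean of per-cell CPM gave log2 ratios of -0.62 and -0.70, against -1.12 for the summed counts. Summed markers of EC were 839 CPM in the DMSO and 359 CPM in the MVC macrophage-like cells, and those of neutrophils 447 and 716 CPM, with 0 and 1 of the 6 neutrophil markers at 0. Those of FAP were 67.9 and 214 CPM, of pericytes 18.9 and 134 CPM and of tenocytes 14.0 and 68.5 CPM. Markers of lymphatic EC were lower in the MVC library, at 350 and 272 CPM. EC-like cells had 88.8 CPM of Mdm2 and neutrophil-like cells 109 CPM in the DMSO library. The part of these cells in the result was not tested.

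In the unnamed cluster Mdm2 had 137.5 CPM in the DMSO and 64.5 CPM in the MVC library, a ratio of 0.469 (0.258 to 0.876) on 19 and 32 UMIs. Its ratio was 0.850 (0.765 to 0.944) in EC-like cells and 0.823 (0.691 to 0.980) in tenocyte-like cells. FAP-like cells had 65.2 CPM in the DMSO and 66.1 CPM in the MVC library, a ratio of 1.01 (0.922 to 1.12). Pericyte-like cells had 0.968 (0.685 to 1.36).

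Trp53inp1 encodes a stress-induced protein that works with p53 in the nucleus and takes part in autophagy. In the DMSO library its level was 167 CPM in T/NK-like cells, 119 CPM in pericyte-like cells, 115 CPM in B cell-like cells and 87.9 CPM in smooth muscle (SMC-like) cells, and at most 35.9 CPM in the other 9 of the 13 classes. Of these levels the T/NK-like one stood apart from the pericyte-like one, and the pericyte-like, B cell-like and SMC-like intervals overlapped. Neutrophil-like cells, only 34 of them in the MVC library, had 224 CPM in the DMSO and 123 CPM in the MVC library.

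In 9 classes with at least 50 UMIs, Trp53inp1 was lower in the MVC library in 7, past 1.5-fold in 6. The pericyte-like level was 119 CPM (99.3 to 141) in the DMSO and 32.3 CPM (20.9 to 47.8) in the MVC library, a ratio of 0.272 (0.170 to 0.420) on 129 and 25 UMIs. A UMI of the gene was found in 81 of 251 DMSO and 20 of 238 MVC pericyte-like cells, which is 32.3% (26.5 to 38.4) against 8.40% (5.21 to 12.7). These cells had a median of 3801 UMIs in the DMSO and 2458.5 in the MVC library. After thinning to 2000 UMIs, which left out 26 DMSO and 96 MVC cells, the shares were 18.7% (13.8 to 24.4) and 5.63% (2.46 to 10.8), beside 1.42% and 2.54% in macrophage-like cells, the DMSO class with the lowest share. The summed markers of T/NK cells, the richest of the 13 classes in this gene, were at 11.99 and 7.76 CPM in pericyte-like cells, with 5 and 7 of the 8 markers at 0. Those of neutrophils were at 14.8 and 7.76 CPM, with 2 and 3 of the 6 at 0. The part of either in the result was not tested. In classes from each cell's own markers the pericyte-like log2 ratio was -1.13 instead of -1.88.

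FAP-like cells went from 25.3 to 14.9 CPM of Trp53inp1, at 0.587 times the DMSO level (0.490 to 0.701), and after thinning the log2 ratio was -1.56 in place of -0.77. It was 0.420 (0.291 to 0.596) in tenocyte-like cells, from 25.8 to 10.8 CPM, and 0.577 (0.359 to 0.926) in MuSC-like cells on 39 and 38 UMIs. In SMC-like cells it was 0.652 (0.457 to 0.921), but 42.5% of the DMSO and 36.1% of the MVC cells of that class were scored as doublets, and without them the log2 ratio was -0.54, no longer past 1.5-fold, in place of -0.62. In B cell-like cells the ratio of 0.606 rested on 1 cell of the DMSO library that held 59 of the 134 UMIs, and the log2 ratio without the 3 richest cells of each library was 0.13 in place of -0.72. The summed plasma cell markers of that class were 2499.5 CPM in the DMSO and 334 CPM in the MVC library, and their part was not tested. T/NK-like cells, at 167 and 157 CPM, had a ratio of 0.944 (0.727 to 1.21). EC-like cells went the other way, with 18.1 CPM in the DMSO and 23.4 CPM in the MVC library, a ratio of 1.29 (1.05 to 1.59), but after thinning their log2 ratio was 0.03. Lymphatic EC-like cells had 8 UMIs in the DMSO and 24 in the MVC library, a ratio of 3.74 (1.63 to 9.63).

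Within FAP-like cells the lower level of Trp53inp1 was found in 3 of 5 clusters. The cluster led by Cxcl14, Grm8 and Mme went from 40.0 to 18.0 CPM, a ratio of 0.449 (0.348 to 0.577). The cluster led by Gdf10 and C7 had 0.306 (0.183 to 0.494), and the cluster led by Pi16 had 0.342 (0.170 to 0.652) on 49 UMIs. The cluster led by Ptx3, Ifi205 and Has1 started lower, at 10.1 CPM, and had a ratio of 1.33 (0.882 to 2.02). The cluster led by Sbsn and Dmkn held 8 and 10 UMIs. In tenocyte-like cells the ratios of the 2 clusters were 0.322 (0.196 to 0.514) and 0.610 (0.342 to 1.07), and in the EC-like cluster led by Depp1 and Rassf9 the ratio was 1.65 (1.14 to 2.42).

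Ccng1, an atypical cyclin that recruits a phosphatase to Mdm2, was sparse outside muscle fibres. The 14 DMSO and 24 MVC cells called muscle fibre-like had 420 CPM (279 to 607) and 355 CPM (243 to 501), on 28 and 32 UMIs. Of these UMIs 3 cells held 78.6% in the DMSO and 62.5% in the MVC library. Among the 13 larger classes the highest level was that of T/NK-like cells, at 39.2 CPM in the DMSO and 31.5 CPM in the MVC library. FAP-like cells had 16.1 and 20.1 CPM, a ratio of 1.25 (1.04 to 1.51), and after thinning the log2 ratio was 1.28 in place of 0.32. It was 0.880 (0.623 to 1.24) for EC-like and 0.723 (0.513 to 1.01) for tenocyte-like cells.

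The pro-apoptotic members were Bax, which permeabilises the outer mitochondrial membrane, and Bbc3, the BH3-only protein PUMA that frees Bax from its inhibitors. Bax in the DMSO library was highest in macrophage-like cells, at 121 CPM (106 to 138), apart from B cell-like cells at 71.5 CPM (56.9 to 88.6). It was lower in the MVC library in macrophage-like cells, at 84.6 CPM and a ratio of 0.698 (0.570 to 0.853), and in EC-like cells, where 53.8 CPM stood against 38.5 CPM at a ratio of 0.716 (0.620 to 0.826). Neither passed 1.5-fold with all UMIs, but after thinning the macrophage-like log2 ratio of Bax was -1.31 in place of -0.52, which is past 1.5-fold. The EC-like ratio of Bax lay nearer to 1 after thinning. In tenocyte-like cells Bax was higher in the MVC library, at 24.6 and 34.8 CPM, with a ratio of 1.41 (1.09 to 1.83). FAP-like cells had a Bax ratio of 0.906 (0.802 to 1.02).

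Among EC-like clusters the lowest Bax ratio was 0.438 (0.306 to 0.617), from 67.7 to 29.6 CPM, in the cluster led by Selp, Sele and Csf3, genes of activated venous endothelium. The Depp1 and Rassf9 cluster had 48.3 CPM of Bax in both libraries. Bbc3 was measured above 50 UMIs in 3 of the 7 classes. In EC-like cells it stood at 14.2 CPM in the DMSO and 10.0 CPM in the MVC library, with a ratio of 0.708 (0.530 to 0.939). Thinning left 54 and 7 Bbc3 UMIs in DMSO EC-like cells with and without a Cdkn1a UMI. It left 26 and 16 in MVC EC-like cells, and the ratio of Bbc3 then lay nearer to 1. FAP-like cells had 0.916 (0.654 to 1.28) and macrophage-like cells 1.23 (0.737 to 2.07), where the log2 ratio of 0.30 became 1.69 after thinning and -0.32 in classes from each cell's own markers. In MuSC-like cells Bbc3 had only 10 and 3 UMIs.

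Phlda3 encodes a PH-domain protein that competes with Akt at the membrane. Perineurial-like cells, with 100 DMSO and 77 MVC cells, held 179 CPM (152 to 209) and 135 CPM (106 to 171), apart from every other of the 13 named classes in both libraries. The 14 DMSO and 24 MVC muscle fibre-like cells, too few to be among those classes, had 285 CPM (172 to 445) and 244 CPM (153 to 370). Of the Phlda3 UMIs there, 3 cells held 63.2% in the DMSO and 45.5% in the MVC library. No UMI of it was found in 203 DMSO and 104 MVC B cell-like cells, with upper bounds of 1.80% and 3.48% on the share of cells with a UMI. The only member past 1.5-fold upward in the 7 main classes was Phlda3 in tenocyte-like cells, from 16.95 CPM (13.2 to 21.4) to 31.8 CPM (26.7 to 37.5), a ratio of 1.87 (1.40 to 2.53). Both tenocyte-like clusters lay above 1, at 1.69 (1.15 to 2.53) and 2.16 (1.36 to 3.49). A UMI was found in 10.9% of DMSO and 15.7% of MVC tenocyte-like cells, and in 3.53% and 5.77% after thinning, with overlapping intervals. In tenocyte-like cells summed markers of SMC were 50.4 CPM in the DMSO and 145 CPM in the MVC library with none of 7 at 0, those of red cells 8.36 and 280 CPM with 1 and 0 of 5 at 0, and those of neutrophils 37.2 and 4.84 CPM with 0 and 3 of 6 at 0. Their part in the tenocyte-like differences of Phlda3, Bax, Trp53inp1 and Gdf15 was not tested. EC-like cells had a ratio of 1.17 (0.806 to 1.71) and FAP-like cells 1.18 (0.981 to 1.43).

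The sestrins, which restrain the growth kinase mTORC1 and limit oxidative stress, differed from each other. Among the 13 named classes of the DMSO library, Sesn1 was highest in B cell-like (146 CPM), T/NK-like (129 CPM) and Schwann-like (107 CPM) cells, whose intervals overlapped, and Sesn2 in perineurial-like (63.3 CPM) and MuSC-like (55.2 CPM) cells. The unnamed cluster had 152 CPM of Sesn1 on 21 UMIs. Across the 26 class and library values the correlation of Sesn1 with Sesn2 was -0.45, as Pearson's r of log2(CPM + 1) over 13 classes that share 2 libraries. Sesn1 was higher in the MVC library in EC-like cells, from 36.6 to 49.2 CPM, with a ratio of 1.35 (1.16 to 1.56). It was lower in B cell-like cells at 0.731 (0.543 to 0.976), where the log2 ratio was -1.07 after thinning in place of -0.45, and in T/NK-like cells at 0.563, with an interval that left out 1. In perineurial-like cells Sesn1 went from 35.5 to 80.1 CPM, a ratio of 2.25 (1.39 to 3.69) on 32 and 42 UMIs, but 3 MVC cells held 52.4% of those UMIs.

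Sesn2 was lower in the MVC library in each of the 6 classes with at least 50 UMIs. On fewer UMIs some classes went the other way. B cell-like cells had 13 UMIs in the DMSO and 17 in the MVC library, a ratio of 2.41 (1.10 to 5.40), and Schwann-like cells had 0 and 6. The FAP-like level was 27.7 CPM in the DMSO and 18.2 CPM in the MVC library, a ratio of 0.658 (0.557 to 0.776). In EC-like cells the levels were 27.7 and 19.8 CPM, a ratio of 0.716 (0.584 to 0.875) that passed 1.5-fold only after thinning (log2 -0.80), and in macrophage-like cells the ratio was 0.642 (0.394 to 1.03). Within FAP-like cells the cluster led by Ptx3, Ifi205 and Has1 went from 42.4 to 24.5 CPM, a ratio of 0.578 (0.446 to 0.743), and the Gdf10 and C7 cluster had 1.69 (0.918 to 3.22). Within EC-like cells the cluster led by Cytl1, Igf2 and St8sia6 had 0.419 (0.223 to 0.754) and the Selp and Sele cluster 0.552 (0.344 to 0.866), while the most numerous cluster had 0.899 (0.671 to 1.20).

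Plk2, a stress-responsive polo-like kinase that acts on centriole duplication, was highest in EC-like cells among the 13 named classes in both libraries. EC-like cells held 345 CPM (334 to 356) in the DMSO and 341 CPM (328 to 354) in the MVC library, a ratio of 0.989 (0.940 to 1.04). The unnamed cluster had 282 and 268 CPM, and lymphatic EC-like cells had 147 and 236 CPM. Outside endothelium the DMSO levels reached 128 CPM in perineurial-like, 124 in Schwann-like, 123 in SMC-like, 100 in macrophage-like and 97.6 in MuSC-like cells. In lymphatic EC-like cells the ratio was 1.60 (1.21 to 2.12), although 3 MVC cells held 35.2% of the 122 UMIs. Within EC-like cells the Cytl1 and Igf2 cluster went from 220 to 293 CPM, a ratio of 1.33 (1.16 to 1.53), and the Selp and Sele cluster from 151 to 120 CPM, a ratio of 0.794 (0.657 to 0.956). FAP-like cells had a ratio of 0.909 (0.776 to 1.06).

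Gdf15 showed the largest difference of any member in EC-like and FAP-like cells. In EC-like cells 1619 UMIs in the DMSO library stood against 322 in the MVC library, a ratio of 0.267 (0.236 to 0.301). Its highest levels were those of lymphatic EC-like cells, at 278 CPM (239 to 322) in the DMSO and 306 CPM (260 to 357) in the MVC library, a ratio of 1.10 (0.883 to 1.37). Macrophage-like cells had 192 and 147 CPM, a ratio of 0.763 (0.653 to 0.892). After thinning the macrophage-like log2 ratio was -1.08, and with the mean of per-cell CPM -0.98, in place of -0.39, both past 1.5-fold. Pericyte-like cells had 0.872 (0.636 to 1.19). SMC-like cells had 1.05 (0.775 to 1.42), but without the doublets of that class the log2 ratio was -1.60 on 47 UMIs in place of 0.07. In B cell-like cells only 1 and 2 UMIs were found.

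The EC-like difference lay in few cells. In the DMSO library 57 of 2203 EC-like cells had at least 10 Gdf15 UMIs, which is 2.59% of the cells and 73.1% of the Gdf15 UMIs. In the MVC library 8 of 1740 cells did, which is 0.460% of the cells and 47.5% of the UMIs. A UMI was found in 9.80% (8.59 to 11.1) of DMSO and 4.08% (3.20 to 5.12) of MVC EC-like cells, at median depths of 3816 and 3657 UMIs, and in 8.21% (7.02 to 9.51) and 3.01% (2.20 to 4.02) after thinning. The share in B cell-like cells, taken as background for free RNA, was 0.493% and 1.92% at depths of 5054 and 5242 UMIs. Each of the 4 EC-like clusters with UMIs in both libraries lay below 1, at 0.278 (0.235 to 0.327) in the cluster led by Slc1a1, 0.116 (0.0642 to 0.195) in the Depp1 and Rassf9 cluster, 0.403 (0.327 to 0.493) in the Cytl1 and Igf2 cluster and 0.123 (0.0242 to 0.396) in the Selp and Sele cluster. The other cluster had 19 UMIs in the DMSO library and 0 in the MVC library. Without the 3 richest cells of each library the EC-like log2 ratio was -2.11, against -1.90 with them. Summed red cell markers were 2627 CPM in the DMSO and 1068 CPM in the MVC EC-like cells, with all 5 detected in both, and their part in the result was not tested.

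**Figure D3:**
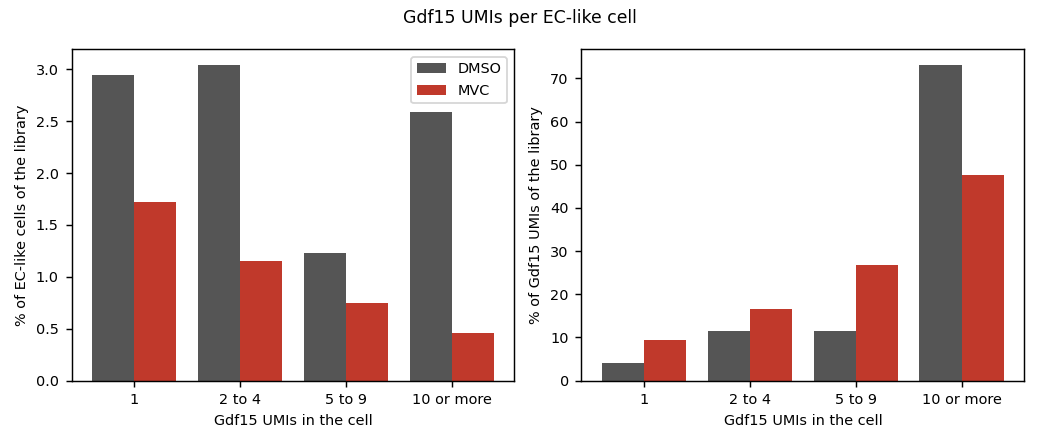
EC-like cells by the number of Gdf15 UMIs in the cell, as a percentage of all EC-like cells of the library (left) and as the percentage of the library's EC-like Gdf15 UMIs that these cells hold (right), in the DMSO library (grey) and the MVC library (red). Cells with 10 or more UMIs made up 2.59% of the DMSO and 0.460% of the MVC EC-like cells.

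In FAP-like cells Gdf15 went from 23.1 to 8.38 CPM, a ratio of 0.362 (0.289 to 0.451). Only 51 of 1171 DMSO and 51 of 1427 MVC cells held a UMI, 3 DMSO cells held 49.8% of the UMIs of their library, and the log2 ratio without the 3 richest cells of each library was -1.05 instead of -1.47. The clusters differed, with 0.168 (0.104 to 0.260) in the Ptx3, Ifi205 and Has1 cluster, 0.347 (0.191 to 0.604) in the Gdf10 and C7 cluster and 1.29 (0.773 to 2.20) in the Cxcl14, Grm8 and Mme cluster. The Pi16 cluster had 0.401 (0.202 to 0.762) on 32 and 15 UMIs. The Sbsn and Dmkn cluster had 1.44 (0.555 to 3.86) on 9 and 12 UMIs. Summed neutrophil markers were 32.9 CPM in the DMSO and 2.77 CPM in the MVC FAP-like cells, with 0 and 2 of the 6 at 0, and their part was not tested. In tenocyte-like cells the ratio of 0.143 rested on 54 and 8 UMIs, with 92.6% of the DMSO UMIs in 3 cells, and the log2 ratio of -2.81 was -1.03 without doublets and -0.12 in classes from each cell's own markers. T/NK-like cells had 40 UMIs in the DMSO library, 38 of them in 1 cell, and 0 in the MVC library.

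**Figure D4:**
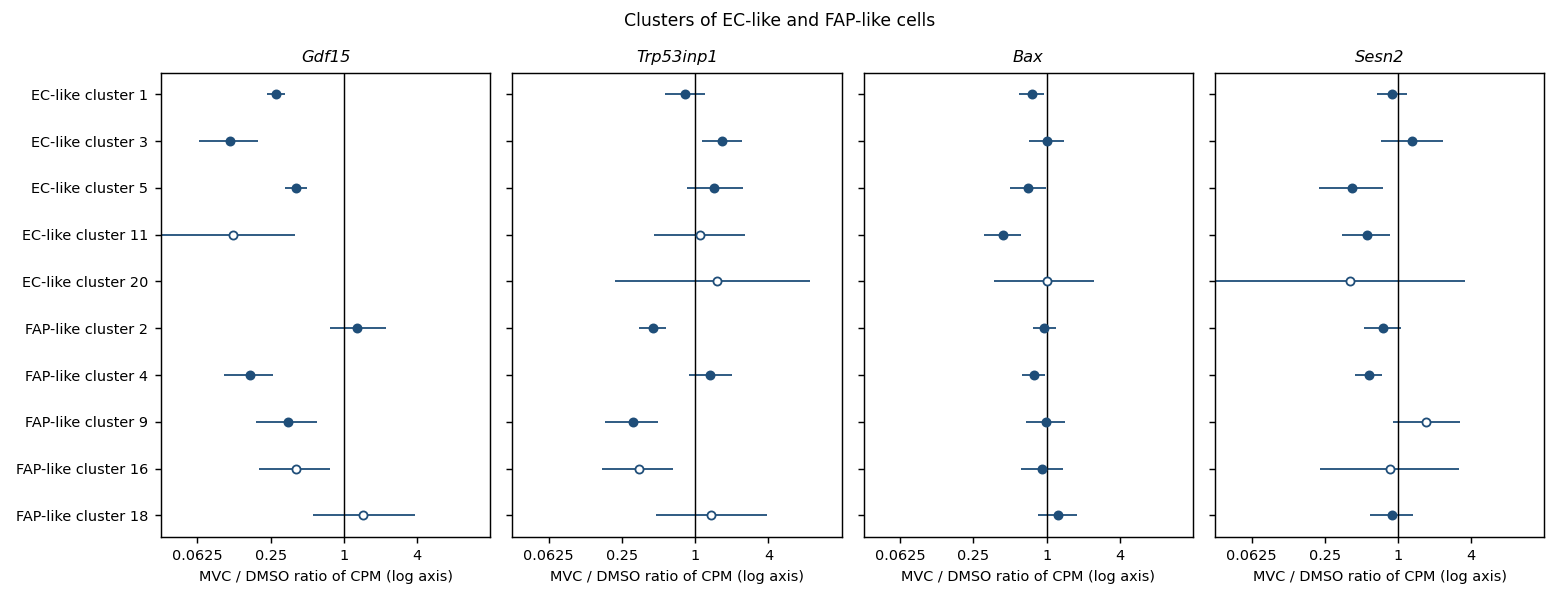
Ratio of the MVC level to the DMSO level (log axis) of Gdf15, Trp53inp1, Bax and Sesn2 in each EC-like and FAP-like cluster with UMIs in both libraries; bars are exact conditional 95% intervals, open points have under 50 UMIs, and the vertical line marks a ratio of 1. Gdf15 lay below 1 in each EC-like cluster drawn, and Trp53inp1 lay below 1 in FAP-like clusters 2, 9 and 16 and at 1.33 in cluster 4.

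Within a cell, members were seldom seen together at this depth. After thinning to 2000 UMIs the mean number of members with a UMI per cell was 0.939 in DMSO and 0.834 in MVC EC-like cells, 1.12 and 0.883 in macrophage-like, 0.844 and 0.648 in pericyte-like, 0.475 and 0.373 in tenocyte-like, 0.497 and 0.469 in FAP-like and 0.597 and 0.547 in MuSC-like cells. B cell-like cells had 0.750 and 0.787. At least 3 members were found in 4.72% of DMSO and 3.90% of MVC EC-like cells and in 11.3% and 6.09% of macrophage-like cells.

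Members were then compared between cells with and without a UMI of Cdkn1a within each library, after thinning. In EC-like cells of the DMSO library 1576 cells had such a UMI and 374 had none, and 3 of 8 members with at least 50 UMIs were higher by 1.5-fold or more in the former, against 8.45% of all genes. Sesn2 had 35.3 CPM with and 10.7 CPM without Cdkn1a, a ratio of 3.30 (1.62 to 7.83). Gdf15 had 182 and 85.6 CPM, a ratio of 2.13 (1.64 to 2.80), and Bbc3 1.83 (0.832 to 4.78). In the MVC library 2 of 7 members passed, against 9.54% of all genes. These were Sesn2 at 3.01 (1.44 to 7.03) and Gdf15 at 1.55 (0.998 to 2.46). Sesn1 went the other way in both libraries, at 0.724 (0.508 to 1.05) and 0.564 (0.409 to 0.776). Without thinning, 2 of 10 members passed in the DMSO library, against 12.9% of all genes, and 2 of 10 in the MVC library, against 11.5%. Bbc3 then lay at 0.872 (0.502 to 1.64) in the DMSO library, and in the MVC library Sesn2 lay at 1.84 (1.16 to 3.08) and Gdf15 at 3.37 (2.25 to 5.24).

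In FAP-like cells 0 of 6 members passed in the DMSO library, against 3.37% of all genes, and 1 of 7 in the MVC library, against 4.26%. That member was Sesn2, at 2.12 (1.16 to 3.83) in the MVC and 1.10 (0.630 to 1.89) in the DMSO library. Gdf15, with 45 UMIs in the DMSO and 25 in the MVC library after thinning, had ratios of 5.94 (2.88 to 13.4) and 3.86 (1.63 to 9.40). Without thinning, the FAP-like ratio of Gdf15 was 5.53 (3.24 to 10.3) in the DMSO and 1.44 (0.955 to 2.20) in the MVC library. Cells of different clusters are mixed in each of these comparisons.

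**Figure D5:**
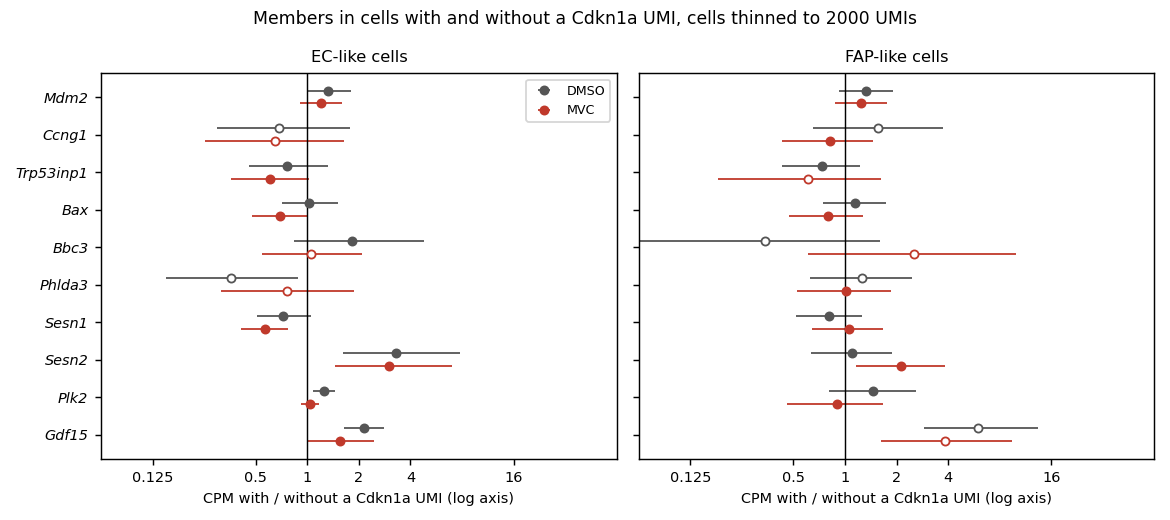
Level of each member in cells with a Cdkn1a UMI over cells without one (log axis), in EC-like (left) and FAP-like (right) cells of the DMSO (grey) and MVC (red) libraries, after thinning each cell to 2000 UMIs; bars are exact conditional 95% intervals, and open points have under 50 UMIs. Sesn2 and Gdf15 lay above 1 in both classes and both libraries, and Sesn1 lay below 1 in EC-like cells of both libraries.

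Across the 26 class and library values, which share 2 libraries and differ in depth, the pairs of members most alike were Mdm2 and Bax (r = 0.62) and Bax and Bbc3 (r = 0.60), and the pair least alike was Bax and Phlda3 (r = -0.58). With Cdkn1a the correlation was 0.61 for Gdf15, 0.58 for Plk2 and -0.57 for Sesn1. Among genes outside the list, the levels most like those of Mdm2 were Chil3 (r = 0.93), Fcna and Trem2, genes of macrophages. The pattern of Gdf15 was most like that of Mef2a (r = 0.86), Gclc and Scarf1, that of Plk2 most like Unc13b (r = 0.80), and that of Trp53inp1 most like Herc3 (r = 0.84).

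The other genes of the pathway were taken from lists of 30 further p53 targets and of 12 genes comprising p53 and its regulators. In EC-like cells 2 of 24 further targets with at least 50 UMIs were lower in the MVC library by 1.5-fold and 1 was higher, beside 4.22% and 8.73% of all genes. Of the 12 regulators 1 was lower and 2 were higher. The lowest ratios of both lists were 0.448 for Pmaip1, which encodes the BH3-only protein Noxa, 0.575 for the checkpoint kinase gene Chek1 and 0.652 for Tigar, a regulator of glycolysis. The interval of Pmaip1 was 0.251 to 0.764. Those of Chek1 (0.292 to 1.08, on 35 and 15 UMIs) and Tigar (0.343 to 1.20, on 35 and 17) held 1. The highest ratios were 1.79 for Atr, 1.60 for Ephx1 and 1.59 for Chek2. In FAP-like cells 2 of 24 targets were lower and 3 higher, beside 3.08% and 12.1% of all genes, and 0 of 11 regulators passed in either direction. The lowest were Ddit4 at 0.534, Cdkn1a at 0.537 and Gadd45a at 0.687, and the highest Dcxr at 2.54 and Trp53i11 at 1.59, followed by Tnfrsf10b. In the other classes the further targets lower by 1.5-fold were 3 of 20 in tenocyte-like, 4 of 13 in pericyte-like, 5 of 15 in MuSC-like, 4 of 15 in macrophage-like and 2 of 10 in B cell-like cells, beside the 5.5%, 7.95%, 9.3%, 6.16% and 7.87% of all genes given above. Those higher were 2, 0, 2, 2 and 2 in the same order, beside 9.04%, 9.81%, 10.1%, 9.88% and 11.7% of all genes. Trp53 itself stood at 40.8 and 38.4 CPM in EC-like cells, a ratio of 0.940, and at 32.3 and 38.2 CPM in FAP-like cells, a ratio of 1.18.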

How the data were processed

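Droplet libraries (10x Genomics) of sorted limb muscle cells were analysed, 1 per treatment. The deposited values were raw counts of UMIs per gene and barcode, made by the authors, whose processing notes list Cell Ranger 7.0.0, Seurat 5.0.1 and mm10. Barcodes under 500 detected genes or above 10% of UMIs from mitochondrial genes were dropped, as in the study's methods. Counts were scaled to 10000 UMIs per cell and clustered on 2000 variable genes without the members and listed pathway genes (30 components, 20 neighbours, Leiden resolution 1) in Python 3.11.15 with scikit-learn 1.9.0 and leidenalg 0.10.2. Clusters were named from fixed markers, so names were rebuilt and may differ from the study's. Doublets were scored against simulated ones and kept. Intervals were exact Poisson, Clopper-Pearson or conditional binomial ones from scipy 1.17.1, and were tested on simulated data. A member was counted where its ratio passed 1.5-fold and it had at least 50 UMIs. All 10 members were named, together with the 3 lowest and 3 highest ratios of the pathway lists in EC-like and FAP-like cells and the 3 genes most like each member. Members and lists were chosen with earlier results of these data known. Alternatives changed the cell filter, doublets, scaling, averaging, depth, class assignment, richest cells and UMI minimum. Intervals cover counting error only, and no correction for free RNA was made. Positions came from GENCODE M21 and promoters from RefSeq.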

Additional observations from a re-analysis of the deposited data

Results flagged for a closer look

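Members whose ratio of the MVC to the DMSO library lay on opposite sides of 1 in different classes, each with an interval that left out 1, were Trp53inp1, Bax and Sesn1. Trp53inp1 was at 1.29 in EC-like cells and at 0.587 in FAP-like, 0.420 in tenocyte-like, 0.272 in pericyte-like, 0.577 in MuSC-like and 0.606 in B cell-like cells. As given above, its EC-like ratio came close to 1 after thinning. Its B cell-like ratio rested on 1 DMSO cell with 59 of the 134 UMIs. Bax was at 1.41 in tenocyte-like cells and at 0.716 in EC-like and 0.698 in macrophage-like cells. Sesn1 was at 1.35 in EC-like and 0.731 in B cell-like cells. The differences between classes were not tested, since each class had 1 library per treatment.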

How the results depend on the processing

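Of 378 ratios recomputed under 7 alternatives, 333 stayed within the counting interval of the main value, 41 left it, and 4 of values past 1.5-fold changed direction. A further 35 changed direction from a main value under 1.5-fold, 6 of them with thinning, and are counted within the 333 and the 41. The 4 were all of Trp53inp1 in B cell-like cells, at log2 0.34 with the mean of per-cell CPM, 0.40 with thinning, 0.58 with classes from each cell's own markers and 0.13 without the 3 richest cells, against -0.72. Under the stricter cell filter and median-ratio scaling all 54 ratios stayed within their intervals. Thinning moved the most, 20 of 54, and left few UMIs. Ccng1 in FAP-like cells then reached log2 1.28. In tenocyte-like cells thinning left Trp53inp1 13 DMSO and 2 MVC UMIs in cells with Cdkn1a, and 17 and 11 in cells without. Both Trp53inp1 and Gdf15 thus fell under 50 UMIs there and were no longer counted, whatever their ratios. Counts of members past 1.5-fold, given as lower ones unless called higher, changed by more than 1.5 times as follows. The causes of the other changes were not tested. With thinning they were 2 (EC-like), 0 (tenocyte-like), 2 (pericyte-like) and 0 (MuSC-like), and 1 higher in FAP-like and in MuSC-like cells; smaller changes were to 2 lower in FAP-like cells, without Sesn2, and to 3 in macrophage-like cells (Mdm2, Bax and Gdf15). With classes from each cell's own markers they were 2 (EC-like), 1 (tenocyte-like), 3 (pericyte-like) and 0 (B cell-like), and 2 higher in MuSC-like cells. Without doublets they were 1 (tenocyte-like), 1 (macrophage-like) and 2 (B cell-like). With the mean of per-cell CPM they were 3 in pericyte-like cells, and 1 higher in MuSC-like cells. Without the 3 richest cells they were 1 (tenocyte-like) and 2 (pericyte-like), and 1 higher in MuSC-like cells. With a minimum of 20 UMIs they were 2 in pericyte-like and in MuSC-like cells, and 2 higher in tenocyte-like and 1 higher in B cell-like cells. With a minimum of 200 UMIs they were 0 in tenocyte-like, MuSC-like and B cell-like cells and 1 in macrophage-like cells, and no pericyte-like member was left. Without thinning, 2 members were higher beside Cdkn1a in FAP-like cells of each library. The counts under these alternatives stand here without a share of all genes beside them. The shares given above for MVC against DMSO belong to the main setting only, so these counts cannot be judged against them. The removal of doublets from SMC-like cells was chosen after seeing the data. No paired analysis was possible because each treatment had 1 library. Depth limited Bbc3, Ccng1 and Phlda3 most, which had at least 50 UMIs in 3 to 5 of 13 classes.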
